A study of Mus musculus with 8 samples.

Results

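Molecular chaperones and the proteins that work with them were examined in RNA from mouse CD4+ T cells of 2 clones called ANT and SAS. The members are the protein-coding genes whose symbol starts with Hsp (leaving out Hspg and Hspb), Dnaja, Dnajb, Dnajc or Cct followed by a digit, together with Hsf1, Hsf2, Tcp1 and Bag1 to Bag6. This rule gave 81 of the 39056 genes in the count table, and 71 of them had enough counts to be tested among 12619 genes. The genotype given for both clones is CD4-Cre TCRβtg Tcra-/-, so all cells carried a Cre recombinase driven from Cd4 and a transgenic T cell receptor (TCR) beta chain and lacked the endogenous alpha chain gene. The marrow was transduced with a retrovirus for the ANT TCRα or the SAS TCRα chain and given to C57BL/6J mice, and CD4+ T cells were later sorted from spleen and lymph nodes, which had been pooled. No age or time after transfer was given. Each clone thus stands for 1 receptor. ANT had 4 libraries, numbered 1, 3, 4 and 5, and SAS also 4, numbered 1, 2, 3 and 6. Where values for all libraries are listed, they follow that order. The labels do not say that each sample came from its own mouse or pool, so the p-values rest on a between-sample spread that may be technical in part.

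Chaperones bind unfolded or partly folded proteins and help them reach or regain their native shape. Hsp70 proteins hold short unfolded stretches in a cycle of ATP hydrolysis that J-domain proteins (the Dnaja, Dnajb and Dnajc genes) start and that nucleotide exchange factors (the Hsp110 and Bag proteins) end. Hsp90 matures kinases and receptors, and the ring-shaped chaperonins, CCT in the cytosol and Hsp60 with Hsp10 in mitochondria, enclose their substrates. Heat shock factor 1 (Hsf1) raises many of these genes under stress, through heat shock elements made of inverted GAA units. In T cells, activation brings rapid protein synthesis and a larger need for folding. It has long been known that handling of cells alone can also raise Hsf1 target genes.

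Promoter sequences are shown for members on which the results below turn, taken from the RefSeq promoter table for GRCm38.p6, which matched 65 of the 81 members. Each is written 5′ to 3′ on the strand of the gene, with matches to a searched motif in capitals. The first set holds Hspa1a and Hspa1b, the stress-inducible Hsp70 genes, whose counts separated the ANT libraries from each other. The windows, chr17:34972157-34972306 and chr17:34959239-34959388 on the minus strand, hold the 150 bases before each start and are identical at 149 of them (99.3%). Capitals mark a heat shock element of 2 units, GAANNTTC or TTCNNGAA on either strand, which 15.1% of 32851 promoters of 300 bases also hold.
Hspa1a: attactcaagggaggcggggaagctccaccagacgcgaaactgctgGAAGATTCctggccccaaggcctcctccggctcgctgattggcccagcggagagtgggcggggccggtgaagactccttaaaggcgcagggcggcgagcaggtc
Hspa1b: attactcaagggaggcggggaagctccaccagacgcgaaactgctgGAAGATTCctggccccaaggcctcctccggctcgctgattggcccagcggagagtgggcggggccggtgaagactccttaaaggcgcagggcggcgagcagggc

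The second set shows heat shock elements in the other members that held them or moved with the same libraries. A match of 3 units, alternating GAA and TTC with 2 bases between them, was present in a promoter of 0.662% of 27025 genes and of 4 of the 65 matched members (6.15%), namely Hspd1, Hspe1, Hsph1 and Dnajb6. The 3-unit matches contain the 2-unit ones, and 16 members (24.6%; 17% of genes) had a match of 2 units. Hspd1 and Hspe1, whose products are the mitochondrial chaperonin Hsp60 and its lid Hsp10, lie head to head on chromosome 1, and the window shown under Hspe1 (chr1:55088053-55088082, plus strand) lies between their starts and within the promoter windows of both. The Hsph1 stretch (chr5:149636351-149636380, minus strand) holds a 2-unit match before its start, since its 3-unit match lies after it. The Dnajb6 stretch (chr5:29735844-29735873, plus strand) holds a 3-unit match. Starts here are those of RefSeq, and the stretches overlap exons in the GENCODE annotation. These are exons of Hspd1 for the Hspe1 stretch, of Hsph1 for its own, and of Dnajb6 and Gm5129 for the Dnajb6 stretch.
Hspe1: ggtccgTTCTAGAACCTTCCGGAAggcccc
Hsph1: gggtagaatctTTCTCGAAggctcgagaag
Dnajb6: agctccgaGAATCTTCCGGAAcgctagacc

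The third set shows the endoplasmic reticulum stress element, CCAAT and CCACG with 9 bases between them, searched on both strands. It was present in a promoter of 0.137% of genes and of 3 of the matched members (4.62%), Hspa5, Hsp90b1 and Dnajc3, whose products work in the endoplasmic reticulum. Hspa5 (chr2:34772020-34772049, plus strand) is shown because its transcript was higher in SAS, and Hsp90b1 (chr10:86705525-86705674, minus strand), with 2 matches, because its transcript did not pass the test. The Hspa5 stretch lies before the RefSeq start but overlaps an exon of Hspa5 in the GENCODE annotation. A match is a description of letters and not evidence of binding.
Hspa5: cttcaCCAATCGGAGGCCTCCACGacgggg
Hsp90b1: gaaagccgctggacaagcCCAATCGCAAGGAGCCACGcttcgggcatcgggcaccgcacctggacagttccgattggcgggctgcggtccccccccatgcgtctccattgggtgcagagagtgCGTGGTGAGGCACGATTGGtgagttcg

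Library totals lay between 27600959 and 31810799 counts. The T cell genes Cd4 and Cd3e were present in every library (857 to 1008 and 448 to 544 CPM) and did not pass the test between clones. Of the 7 defining T cell markers 2 were higher in ANT, Thy1 (917 against 248 CPM, log2 fold change -1.89) and Trac (318 against 202 CPM, -0.65). The cells lacked the endogenous alpha chain gene and were transduced with a TCRα chain, so what Trac counts measure here is uncertain. CPM, the usual depth-scaled count, was computed here on library sizes after TMM scaling. The summed level of the 7 T cell markers, Trac included, was 3660 to 4387 CPM in ANT, against 2981 to 3198 CPM in SAS. Among markers of other cells, the 8-gene B cell list summed to 639.4 to 689.3 CPM in ANT, against 123.8 to 184.2 CPM in SAS, nearly all of it Ighm, while Cd79a, a signalling chain of the B cell receptor, was at 0.548 to 1.12 CPM. The 2 CD8 genes summed to 14.1 to 66.8 CPM in ANT, against 1.99 to 4.49 CPM in SAS, most of it Cd8b1. The plasma, myeloid, dendritic and NK cell lists each summed to at most 14.4 CPM in every library, and 3 of 5 NK genes were at 0 in all. In such bulk samples fewer cells of a type and less RNA per cell cannot be told apart, and the part of these differences in the results was not tested.

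Between the clones, chaperone genes moved in both directions and mostly by less than a doubling. Of the 71 members tested, 18 (25.4%) differed at an adjusted p under 0.05, against 37.4% of all genes tested. Of these, 10 lay higher in SAS (14.1%; 19.8% of all genes) and 8 higher in ANT (11.3%; 17.7% of all genes). Their median log2 fold change, SAS minus ANT, was 0.0339, against -0.00318 for all genes, and the median of the absolute values was 0.28 against 0.35. Only 5 members (7.04%; 15.9% of all genes) were called with at least a 2-fold difference: Bag2 and Hspa4l, higher in SAS, and Dnajc6, Dnajc15 and Dnajc28, higher in ANT. For 21 members (29.6%; 38.1% of all genes) the clones did not overlap, with all 4 libraries of 1 clone above the other 4. Such a separation was thus common over all genes. The summed level of all members was 12187, 10457, 12624 and 13335 CPM in ANT, against 15290, 12525, 13995 and 14617 CPM in SAS, and the lowest SAS library lay below ANT replicates 4 and 5. The counts of members called higher in SAS and in ANT depend on the libraries. Without ANT replicates 4 and 5 they were 18 and 16, and without ANT replicates 1 and 3 they were 10 and 11. With scaling by library totals alone they were 18 and 7, and SAS-high genes then made up 64.8% of all calls instead of 52.8%.

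**Figure D1:**
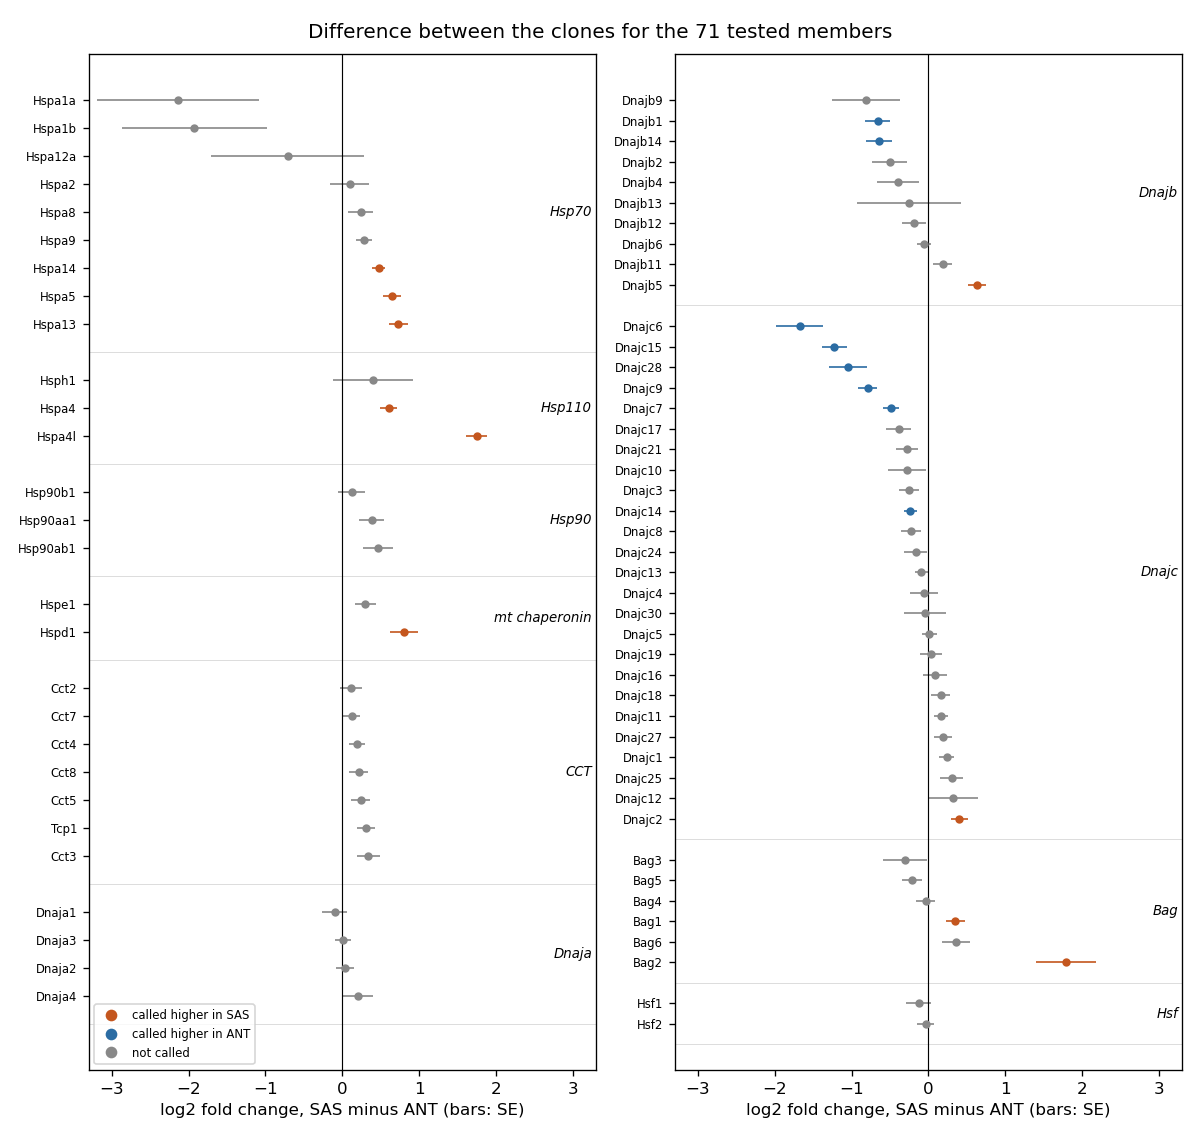
Log2 fold change, SAS minus ANT, of each of the 71 tested members (points) with its standard error (bars), grouped by role, with called members in orange (higher in SAS) or blue (higher in ANT). Hsp110 and several Hsp70 genes lie to the right, Dnajc6 and Dnajc15 to the left, and the CCT subunits all lie close to and above 0.

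The Hsp110 family, the exchange factors of Hsp70, held the strongest SAS excess among well-expressed members. Hspa4l (ENSMUSG00000025757.12, chromosome 3, 40744495 to 40796103, plus strand, mm10) was at 40.6, 39.0, 48.8 and 59.5 CPM in ANT, against 157, 151, 158 and 165 CPM in SAS. The clones stood far apart, and the log2 fold change was 1.75 (SE 0.14, adjusted p 6.23e-06), a ratio of 3.36. Hspa4, its close relative, was at 189, 177, 231 and 225 CPM in ANT, against 305, 301, 342 and 302 CPM in SAS. The clones did not overlap for Hspa4 either (log2 fold change 0.61, SE 0.11, adjusted p 0.0019). Hsph1, the third member and a heat-inducible one, was at 89.3, 50.1, 305 and 403 CPM in ANT, against 272, 269, 284 and 292 CPM in SAS. ANT replicates 4 and 5 lay above all SAS libraries and replicates 1 and 3 below all of them, and the test did not call the gene (log2 fold change 0.40, SE 0.52, adjusted p 0.584). Without ANT replicates 4 and 5 Hsph1 was called (1.98, adjusted p 0.000173), and without ANT replicates 1 and 3 its direction turned (-0.34, adjusted p 0.0567).

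Of 9 tested Hsp70 genes, 3 were higher in SAS, and edgeR called 0 higher in ANT, as did limma-voom, DESeq2 and an unadjusted p under 0.05. The share higher in SAS was 33.3%, against 19.8% of all genes tested. Hspa5, the Hsp70 of the endoplasmic reticulum also called BiP (chromosome 2, 34771970 to 34777547), was at 545, 434, 571 and 545 CPM in ANT, against 907, 718, 817 and 837 CPM in SAS. The clones did not overlap, and the log2 fold change was 0.65 (SE 0.12, adjusted p 0.00196). Hspa13, a small Hsp70-like protein of the same compartment, was at 20.6 ± 2.16 CPM in ANT, against 34.1 ± 3.67 CPM in SAS (SD, n = 4 libraries each), which gave a log2 difference of 0.73 (SE 0.12, adjusted p 0.000897). Hspa14 and the J-domain protein Dnajc2 together form a complex that sits on the ribosome and meets nascent chains. Hspa14 was at 62.9, 60.3, 68.0 and 62.8 CPM in ANT, against 89.8, 82.8, 91.1 and 89.4 CPM in the SAS libraries (log2 fold change 0.48, SE 0.09, adjusted p 0.00173). Dnajc2 was at 74.7, 71.4, 87.2 and 80.3 CPM in ANT, against 103, 88.8, 119 and 105 CPM in SAS. Both genes separated the clones, although for Dnajc2 ANT replicate 4 lay close to SAS replicate 2 (log2 fold change 0.40, SE 0.11, adjusted p 0.0175), and Dnajc2 was not called without ANT replicate 3 (adjusted p 0.0516) or SAS replicate 3 (0.0557).

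The more abundant constitutive Hsp70 genes did not pass the test. Hspa8, the main cytosolic Hsp70, was at 1986 ± 261 CPM in ANT, against 2341 ± 451 CPM in the SAS libraries (log2 fold change 0.24, adjusted p 0.277). Hspa9, the mitochondrial Hsp70, was at 208, 193, 244 and 235 CPM in ANT, against 268, 247, 287 and 267 CPM in SAS. All SAS libraries lay above all ANT libraries for Hspa9, and its adjusted p was 0.0568 (log2 fold change 0.28, SE 0.10). It was called by DESeq2 (adjusted p 0.0282), with upper-quartile scaling (0.0496), scaling by totals alone (0.0141), a filter at 50 counts (0.0418) or a replicate block (0.00334), without ANT replicate 4 (0.046) and without ANT replicates 4 and 5 (0.011). Hspa1a and Hspa1b, the stress-inducible pair, had negative log2 fold changes with wide errors (-2.14, SE 1.05, and -1.92, SE 0.94, adjusted p 0.138 for each). Hspa2, an Hsp70 known from germ cells, was scarce at 1.39 ± 0.169 CPM in ANT, against 1.48 ± 0.336 CPM in SAS.

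**Figure D2:**
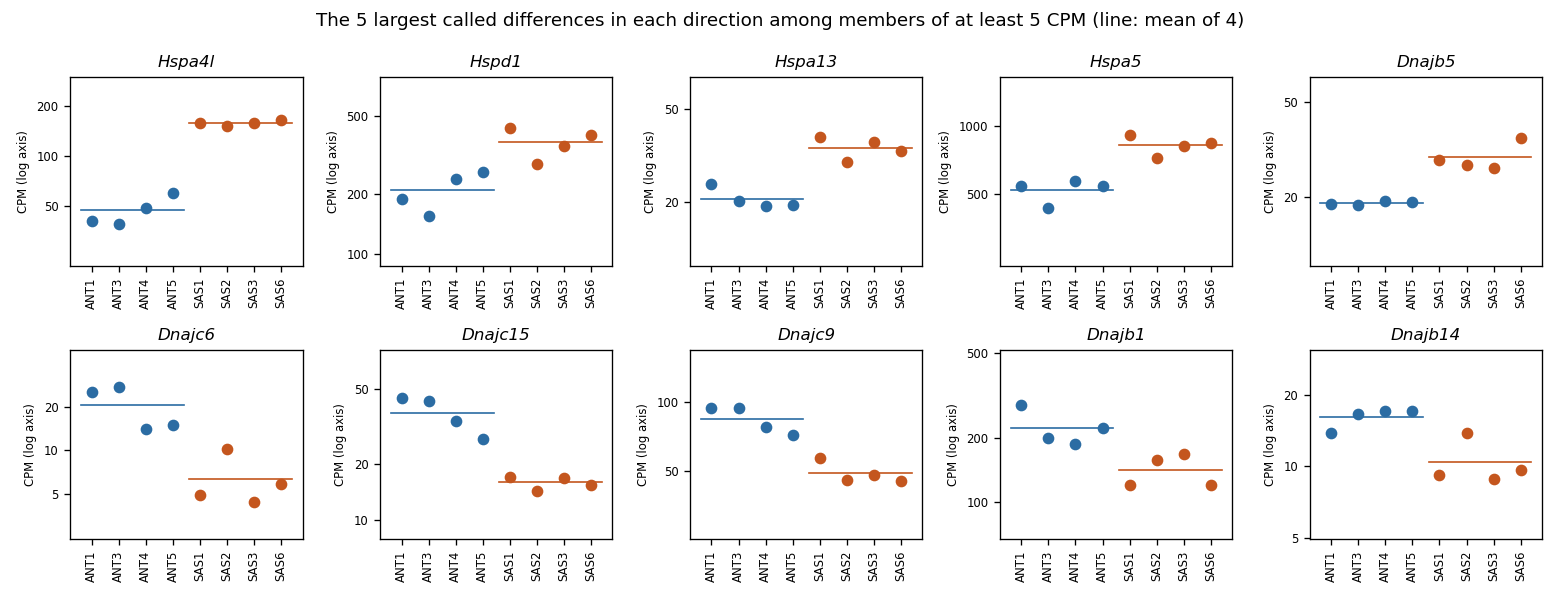
CPM (log axis) in each library (points) of called members, the 5 that changed most in either direction at 5 CPM or more, ANT in blue and SAS in orange, with a line at each clone's mean. The Hspa4l libraries of the clones stand widely apart, at 39.0 to 59.5 against 151 to 165 CPM, while those of Dnajb14 touch.

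Of 3 Hsp90 genes edgeR, DESeq2 and limma-voom called 0, and 2 had an unadjusted p under 0.05. Over all genes tested edgeR called 37.4%. Hsp90ab1, the constitutive cytosolic form, had the highest level per kb of exon of any member, 649 CPM per kb in ANT and 894 in SAS. Hspa8 followed with 462 and 544 CPM per kb. Transcripts of Hspa8 share 38.6% of their 50-base windows with other genes' transcripts, and those of Hsp90ab1 3.44%. The order of the 2 genes is therefore uncertain by how such reads were treated. Hsp90ab1 was at 1563, 1359, 2236 and 2624 CPM in ANT, against 2704, 2508, 2804 and 2703 CPM in the SAS libraries (log2 fold change 0.46, SE 0.19, adjusted p 0.088). Its highest ANT library lay within the SAS range. Hsp90aa1, the inducible form, was at 510, 352, 517 and 619 CPM in ANT, against 732, 566, 649 and 655 CPM in the SAS libraries (log2 fold change 0.38, SE 0.16, adjusted p 0.0936). Both were called without ANT replicate 5, with log2 fold changes of 0.63 (adjusted p 0.0148) and 0.49 (adjusted p 0.0338), and also without ANT replicates 4 and 5, with a replicate block and with scaling by totals alone. Hsp90b1, the form of the endoplasmic reticulum, was at 363 ± 63.3 CPM in ANT, against 395 ± 87.0 CPM in SAS (adjusted p 0.616).

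Among 19 cochaperones outside the member rule, 1 was higher in SAS and 1 higher in ANT, with a median log2 fold change of -0.00388. Each is 5.26% of the list, against 19.8% and 17.7% of all genes tested. St13, which links Hsp70 to Hsp90, was at 113, 105, 208 and 239 CPM in ANT, against 328, 254, 302 and 314 CPM in the SAS libraries (log2 fold change 0.85, SE 0.25, adjusted p 0.0229). Sugt1, an Hsp90 partner, was at 81.8, 76.1, 72.1 and 65.0 CPM in ANT, against 57.0, 37.1, 45.1 and 44.9 CPM in the SAS libraries (log2 fold change -0.68, SE 0.14, adjusted p 0.00298). The clones did not overlap for either gene, as for 38.1% of all genes tested.

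In mitochondria, Hspd1 (Hsp60; chromosome 1, 55077835 to 55088243) was at 189, 156, 240 and 259 CPM in ANT, against 436, 285, 350 and 399 CPM in SAS. All SAS libraries lay above all ANT libraries, and the log2 fold change was 0.80 (SE 0.18, adjusted p 0.0059). Its partner Hspe1, which starts from the same short stretch of chromosome 1, was at 106, 92.2, 83.5 and 86.8 CPM in ANT, against 133, 89.7, 108 and 123 CPM in SAS. The clones overlapped for Hspe1 (log2 fold change 0.30, SE 0.14, adjusted p 0.109), which was called without SAS replicate 2 (0.40, adjusted p 0.0325) and with scaling by totals alone (0.40, adjusted p 0.0423). The difference between the 2 genes' fold changes was not tested. Transcripts of Hspd1 and Hspe1 share 39.7% and 18.4% of their 50-base windows with transcripts of other annotated genes, as those of Hsp90aa1 and Hspa8 do for 47.5% and 38.6%, so the counts of these 4 genes are uncertain by how such reads were treated. Of 14 other mitochondrial chaperones, import factors and proteases, 3 were higher in SAS (21.4%, near the 19.8% of all genes) and 0 in ANT, with the same counts at an unadjusted p under 0.05 and by DESeq2 and limma-voom: Tomm70a, an import receptor that accepts precursors from Hsp70 and Hsp90 (0.47, adjusted p 0.00715), Trap1, the mitochondrial Hsp90 (0.35, adjusted p 0.0116), and Timm44, which tethers Hspa9 to the import channel (0.31, adjusted p 0.0352). The median of that list was 0.07.

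The CCT ring, which folds actin and tubulin, gave a common sign. Of its 7 tested subunits edgeR called 0, against 37.4% of all genes tested. By limma-voom 0 were called and by DESeq2 1, with 2 at an unadjusted p under 0.05. All 7 tested subunits had a positive log2 fold change, from 0.11 for Cct2 to 0.34 for Cct3 (adjusted p 0.561 and 0.0988), with 0.30 for Tcp1 (adjusted p 0.0675), and the clones overlapped for each. The median of the subunits was 0.216, against -0.00318 over all genes tested. The subunits varied together between libraries, so the 7 signs are not independent. SAS replicate 1 was the highest of all 8 libraries for all 7 and SAS replicate 2 the lowest SAS library for all 7. ANT replicate 1 was the highest ANT library for 6. Tcp1 was at 290, 255, 241 and 235 CPM in ANT, against 364, 267, 308 and 323 CPM in SAS. It was called by DESeq2 (adjusted p 0.044), with scaling by totals alone (0.0222), without ANT replicate 1 (0.0491), without ANT replicates 1 and 3 (0.0399) and without SAS replicate 2 (0.032). Cct6a is annotated as a processed transcript in GENCODE M21 and so is not a member, and it was at 191 ± 14.0 CPM in ANT, against 227 ± 32.3 CPM in SAS (0.25, adjusted p 0.123). Prefoldin hands chains to CCT. Of 9 genes of prefoldin and other CCT assistants, edgeR, DESeq2 and limma-voom called 0, while edgeR called 37.4% of all genes tested. An unadjusted p under 0.05 was reached by 1 of them, Pfdn5 (-0.39, adjusted p 0.0759). Their median was -0.05.

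**Figure D3:**
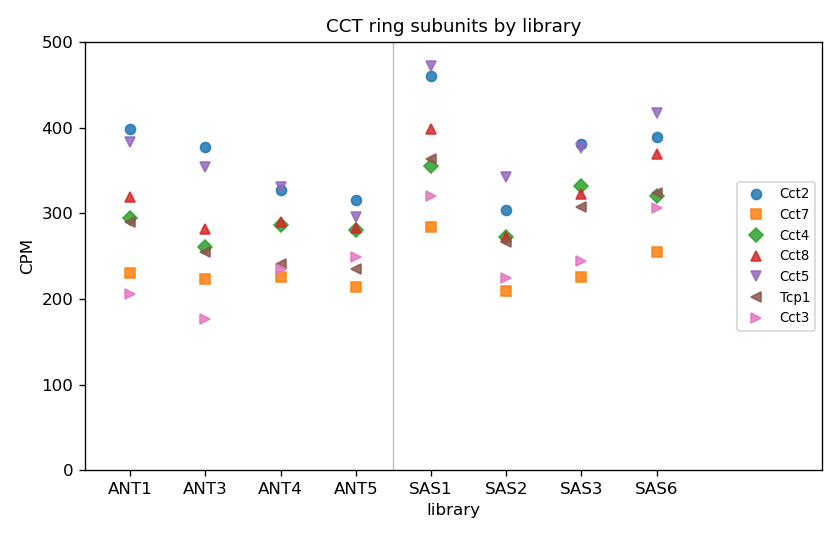
CPM of the 7 tested CCT subunits (symbols) in each of the 8 libraries, on a linear axis from 0. SAS replicate 1 is the highest library for every subunit and SAS replicate 2 is the lowest SAS library for every subunit.

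All 8 members called higher in ANT were J-domain genes, which make up 39 of the 71 tested. These 8 are 20.5% of the J-domain genes tested, near the 17.7% of all genes that were higher in ANT. Higher in SAS were 2 J-domain genes (5.13%), against 19.8% of all genes tested. Of 25 tested Dnajc genes, 6 were higher in ANT and 1 in SAS, of 10 Dnajb genes 2 and 1, and of 4 Dnaja genes 0 and 0, with none at an unadjusted p under 0.05 and 0 by DESeq2 or limma-voom. Dnajc6, which encodes auxilin, the factor that calls Hsp70 to strip clathrin from vesicles (ENSMUSG00000028528.16, chromosome 4, 101496648 to 101642799), was at 25.4, 27.2, 14.1 and 14.96 CPM in ANT, against 4.93, 10.3, 4.42 and 5.91 CPM in SAS. The clones did not overlap, and the log2 fold change was -1.68 (SE 0.31, adjusted p 0.00181). Dnajc15, a protein of the inner mitochondrial membrane also known as MCJ that restrains the respiratory chain (chromosome 14, 77820681 to 77875125), was at 44.6, 43.2, 33.7 and 27.1 CPM in ANT, against 17.1, 14.3, 16.8 and 15.4 CPM in SAS. Its ANT mean was 2.34 times its SAS mean (log2 fold change -1.23, SE 0.16, adjusted p 0.000219). Dnajc9, a chaperone of histones, was at 94.4, 94.3, 77.6 and 71.8 CPM in ANT, against 56.7, 45.6, 48.0 and 45.0 CPM in SAS (-0.79, SE 0.13, adjusted p 0.000718). For these 3 genes ANT replicates 1 and 3 were also the highest libraries of all.

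Dnajc7, which binds both Hsp70 and Hsp90, was the most abundant of the members higher in ANT, at 376, 360, 339 and 335 CPM against 273, 221, 235 and 273 CPM in SAS (-0.49, SE 0.10, adjusted p 0.00407). Dnajb1, the main cytosolic partner of Hsp70 in the heat shock response, was at 286, 198, 186 and 222 CPM in ANT, against 120, 157, 168 and 120 CPM in SAS (-0.66, SE 0.16, adjusted p 0.010). All ANT libraries lay above all SAS libraries, with SAS replicates 2 and 3 nearest to them. Dnajb14, a membrane protein of the endoplasmic reticulum, was at 13.8, 16.7, 17.2 and 17.2 CPM in ANT, against 9.23, 13.8, 8.87 and 9.64 CPM in SAS, where ANT replicate 1 and SAS replicate 2 met (-0.64, SE 0.16, adjusted p 0.0111). Dnajc28 was scarce, at 4.95 ± 1.26 CPM against 2.40 ± 0.576 CPM (-1.04, adjusted p 0.00777). Dnajc14, a protein of the endoplasmic reticulum that escorts receptors, was at 113 ± 1.74 CPM in ANT, against 96.1 ± 5.45 CPM in SAS (-0.24, adjusted p 0.0474), a call lost on leaving out any of the 8 libraries (adjusted p 0.0573 to 0.123). In the other direction, Dnajb5, a relative of Dnajb1, was at 18.8, 18.6, 19.3 and 19.0 CPM in ANT, against 28.7, 27.2, 26.4 and 35.2 CPM in SAS (0.63, SE 0.12, adjusted p 0.00175). The spread within ANT was small for Dnajb5, 0.292 CPM.

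J-domain partners of Hspa5 in the endoplasmic reticulum did not pass the test. Dnajc3, which also restrains the kinase Eif2ak3, was at 269 ± 36.0 CPM in ANT, against 227 ± 27.7 CPM in SAS (-0.25, adjusted p 0.155). Dnajb11, a soluble partner in the lumen, was at 74.8 ± 11.2 CPM in ANT, against 85.3 ± 8.04 CPM in SAS (0.19, adjusted p 0.267). Dnajb9, which brings Hspa5 to the stress sensor Ern1, was at 94.2 ± 44.3 CPM in ANT, against 53.8 ± 30.1 CPM in SAS (-0.81, adjusted p 0.177), and Dnajc10, which reduces disulfide bonds, at 93.1 ± 36.8 and 76.8 ± 7.76 CPM (-0.28, adjusted p 0.411). Of 21 other genes of endoplasmic reticulum folding and the unfolded protein response, 9 were higher in SAS and 5 in ANT, with a median of 0.16. Those shares were 42.9% and 23.8%, against 19.8% and 17.7% of all genes tested. Atf6, a membrane-bound transcription factor that is cut and released under stress, was at 14.9, 13.2, 10.7 and 11.6 CPM in ANT, against 37.7, 36.5, 36.4 and 33.4 CPM in SAS (1.51, SE 0.13, adjusted p 8.91e-06). Eif2ak3, the sensor kinase PERK, went the other way, at 56.0, 60.6, 66.7 and 63.4 CPM in ANT, against 28.9, 29.5, 33.3 and 28.4 CPM in SAS (-1.04, SE 0.10, adjusted p 2.24e-05). P4hb, the disulfide isomerase of the lumen, was higher in SAS (0.53, adjusted p 0.00189).

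Of 6 Bag genes, 2 were higher in SAS and 0 in ANT, with the same counts at an unadjusted p under 0.05 and by DESeq2 and limma-voom. The share higher in SAS was 33.3%, against 19.8% of all genes tested. Bag2, which restrains the ubiquitin ligase that attends Hsp70, was at 1.07, 0.331, 1.73 and 1.48 CPM in ANT, against 3.93, 4.35, 3.52 and 4.18 CPM in SAS. The clones did not overlap (log2 fold change 1.79, SE 0.39, adjusted p 0.00489), but the gene was scarce and lay below the level of the count filter in ANT replicate 3. Bag1, an exchange factor that also binds Bcl2, was at 45.9, 46.3, 62.9 and 55.2 CPM in ANT, against 62.8, 72.4, 71.6 and 61.5 CPM in SAS. The clones overlapped at ANT replicate 4 (0.35, SE 0.12, adjusted p 0.0482), and the call was lost on leaving out any library except ANT replicate 4 (adjusted p 0.0596 to 0.12). Bag3, a stress-inducible member that sends clients to autophagy, was at 7.64 ± 2.26 and 6.19 ± 2.37 CPM (-0.31, adjusted p 0.448).

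Neither heat shock factor passed the test in edgeR, DESeq2 or limma-voom, nor at an unadjusted p under 0.05. Hsf1 was at 73.5 ± 16.9 CPM in ANT, against 67.3 ± 6.30 CPM in SAS (-0.13, adjusted p 0.568), and Hsf2 at 29.1 ± 3.07 and 28.4 ± 2.09 CPM (-0.04, adjusted p 0.821). Of 15 small heat shock proteins and other Hsf1 targets, 6 were tested, with 0 higher in SAS and 1 higher in ANT, and their median was -0.43. The share higher in ANT was 16.7%, near the 17.7% of all genes tested. The called gene, Hspb6, was scarce at 2.66 ± 0.557 and 1.54 ± 0.215 CPM (-0.78, adjusted p 0.0256). In ANT 5 were higher at an unadjusted p under 0.05 and 3 by DESeq2 and by limma-voom, with 0 higher in SAS by each.

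Within ANT, replicates 1 and 3 stood apart from replicates 4 and 5 in a set of chaperone genes that moved in opposite directions. The labels name no batch for these libraries, the split comes from an earlier look at the same data, and it is described without a test. Hspa1a (ENSMUSG00000091971.3, chromosome 17, 34969190 to 34972156, minus strand) was at 102 and 82.0 CPM in replicates 1 and 3 and at 0.505 and 7.51 CPM in replicates 4 and 5, with 10.2, 6.17, 9.77 and 17.5 CPM in SAS. Hspa1b, its neighbour (34956436 to 34959238), was at 274 and 232 CPM against 4.22 and 33.4 CPM, with 37.6, 17.9, 26.6 and 61.1 CPM in SAS. Replicates 1 and 3 lay above every other library for both genes, and replicate 4 below every other one. The ratio of the pair means was 23.0 for Hspa1a and 13.5 for Hspa1b. Their transcripts share 60.3% and 62.3% of 50-base windows with other genes' transcripts, so reads could be assigned to either copy or lost, and the values of the 2 genes are not independent. Each was called without ANT replicate 4 (-2.56 and -2.34, adjusted p 0.0179 and 0.0177) and without ANT replicates 4 and 5 (-3.09 and -2.84, adjusted p 0.0012 and 0.0068). Each was also called with a replicate block (-3.20 and -2.99), which compares only replicates 1 and 3 of each clone. Without ANT replicates 1 and 3 each turned direction, to 1.44 and 0.93 (adjusted p 0.343 and 0.508).

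Other members known as Hsf1 targets differed in direction. Hspe1 was also higher in replicates 1 and 3, though by less, at 106 and 92.2 against 83.5 and 86.8 CPM. Its partner Hspd1, with the same element in its promoter window, was lower there, at 189 and 156 against 240 and 259 CPM. Lower too were Bag3, at 5.86 and 5.51 against 9.66 and 9.51 CPM, and Dnaja1, at 436 and 309 against 498 and 551 CPM. Hsph1 was on average 5.08 times as high in replicates 4 and 5 as in replicates 1 and 3. Hsp90ab1 was 1.66 times and Hsp90aa1 1.32 times as high in that pair, and all 3 Hsp110 and all 3 Hsp90 genes were lower in replicates 1 and 3. So were 35.9% of all genes tested. Hsf1 itself was at 56.8 and 61.1 CPM in replicates 1 and 3 and 86.4 and 89.6 CPM in replicates 4 and 5. Dnajb1 overlapped between the pairs (286 and 198 against 186 and 222 CPM). Dnajb9, Dnajc10, Dnajb2 and Dnajc30 were named for the size of their gap between the pairs and not as Hsf1 targets. Dnajb9 was at 66.8 and 46.4 against 133 and 130 CPM, and Dnajc10 went the other way, at 123 and 126 against 62.4 and 60.0 CPM. Dnajb2, best known from neurons, was at 19.5 and 19.6 against 34.5 and 39.1 CPM, and Dnajc30, a mitochondrial J-domain protein, at 5.10 and 5.92 against 12.1 and 9.38 CPM.

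Cochaperones outside the member rule split in both directions, and those with the widest gaps lay on the side of Hsph1. Stip1, which joins Hsp70 to Hsp90, was at 88.5 and 67.0 CPM in replicates 1 and 3 and at 254 and 283 CPM in replicates 4 and 5, with 174, 154, 178 and 194 CPM in SAS, between the pairs. Fkbp4, an immunophilin partner of Hsp90, was at 113 and 95.4 against 212 and 217 CPM, and St13 at 113 and 105 against 208 and 239 CPM. Of the 19 cochaperones, 12 were lower in both replicates 1 and 3 than in replicates 4 and 5, and 6 higher. Among the latter were Cdc37, which brings kinases to Hsp90, at 263 and 264 against 240 and 217 CPM, Ppid at 114 and 103 against 91.1 and 87.0 CPM, and Sugt1. The prefoldin list went the other way, with 8 of 9 genes higher in replicates 1 and 3. Over all genes tested, 38% were higher and 35.9% lower in both replicates 1 and 3. A split in either direction was thus common, at 73.9% of all genes tested.

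Over the members as a whole the split was near that of all genes. Replicates 1 and 3 both lay above replicates 4 and 5 for 24 of 71 members (33.8%; 38% of all genes) and both below for 32 (45.1%; 35.9% of all genes), 56 in either direction (78.9%; 73.9% of all genes). The pair means were at least 2-fold apart for 7 of these members (9.86%; 6.14% of all genes): Hspa1a, Hspa1b, Dnajc10 and the scarce Dnajb13 higher in replicates 1 and 3, and Hsph1, Dnajb9 and the scarce Bag2 higher in replicates 4 and 5. Other values moved with the split. The share of counts in mitochondrial genes was 2.54% and 2.44% in replicates 1 and 3 against 1.62% and 1.54% in replicates 4 and 5, and the share in ribosomal protein genes 9.18% and 8.95% against 7.27% and 6.10%. The CD8 pair summed to 39.7 and 66.8 against 24.0 and 14.1 CPM, and the 5 erythroid genes to 0.828 and 0.919 against 5.77 and 12.9 CPM. Their part in the split was not tested.

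**Figure D4:**
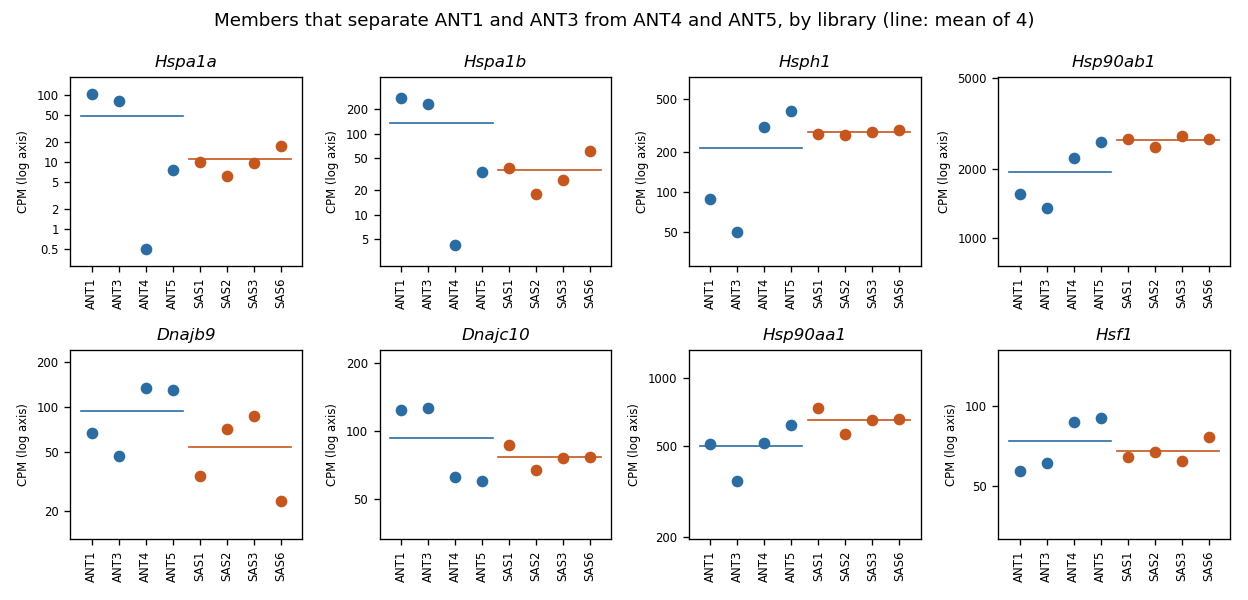
CPM (log axis) of members that separate ANT replicates 1 and 3 from replicates 4 and 5, with 1 point per library, SAS in orange beside ANT in blue, and a line at each clone's mean. Hspa1a and Hspa1b are high in replicates 1 and 3, while Hsph1, Hsp90ab1, Dnajb9 and Hsf1 are high in replicates 4 and 5.

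Immediate early genes, which tissue dissociation often raises, were also uneven between libraries. Of 16 listed genes 14 were tested, 1 higher in SAS and 6 higher in ANT, with a median of -0.64. Those are 7.14% and 42.9% of the tested ones, against 19.8% and 17.7% of all genes tested. Egr1, which TCR signals also induce, was higher in SAS (2.18, adjusted p 0.000174), and Socs3, a feedback inhibitor of cytokine signals, higher in ANT (-3.29, adjusted p 4.96e-06), as was Btg2 (-0.72, adjusted p 0.000111). The 16 genes summed to 4467 and 3632 CPM in ANT replicates 1 and 3, 6175 and 5999 CPM in ANT replicates 4 and 5, and 2315, 4233, 5119 and 2456 CPM in SAS. In ANT, 11 of the 14 tested were lower in both replicates 1 and 3 than in replicates 4 and 5 (35.9% of all genes tested). The other direction held for 2 (38% of all genes), Fos (905 and 727 against 615 and 706 CPM) and Btg2. Hspa1a and Hspa1b were highest in the ANT libraries in which the sum was lower. In SAS, Dnajb9 (34.0, 70.99, 87.0 and 23.3 CPM), Dnajb4 (23.3, 40.7, 45.4 and 18.2 CPM) and Dnajb1 were all higher in replicates 2 and 3, the libraries with the larger sum. Hspa1a (10.2, 6.17, 9.77 and 17.5 CPM) and Hspa1b (37.6, 17.9, 26.6 and 61.1 CPM) were instead highest in SAS replicates 6 and 1. Within ANT, Dnajb1 was highest in replicate 1 (286 CPM), where the sum was lower than in replicates 4 and 5. The share of all genes with such an order of SAS libraries was not computed. The part of the immediate early genes in the members' values was not tested.

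The 10 members that were not tested had few or no counts. Cct6b had 58 counts in the 4 ANT libraries together and 33 in SAS, Dnajb3 had 15 and 16, Hspa12b 1 and 14, and Cct8l1 3 and 6. Dnajb8, Dnajc5g and Hspa1l had 1 count each, all in ANT, and Dnajb7, Dnajc5b and Dnajc22 had 0. Of the 71 tested, Bag2, Dnajb13 and Hspa12a were below the level of the count filter in some library. Hspa12a, a distant Hsp70 relative, stood high in 1 library of each clone, at 5.51 CPM in ANT replicate 3 and 4.63 CPM in SAS replicate 2, against 0.183 to 2.10 CPM in the others. It did not pass the test (-0.71, adjusted p 0.613).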

How the data were processed

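RNA from sorted CD4+ T cells was made into strand-specific TruSeq mRNA libraries, per the labels' protocols. A single table with whole-number read counts of each gene in 8 libraries was deposited by the authors. STAR and featureCounts with mm10 were used, per the submitters' processing notes, and their versions, the strand setting and the treatment of multi-mapped reads are not given in the sources used here. Symbols and coordinates come from GENCODE M21, in which 38872 of 39056 IDs were found. Counts of near-identical or overlapping genes are therefore uncertain. Genes passing edgeR's default filter (minimum count 10) were scaled with TMM factors and tested with edgeR 4.0.16 in R 4.3.3 (robust quasi-likelihood, SAS against ANT, all 8 libraries, no covariate), and p-values were Benjamini-Hochberg adjusted over 12619 genes. A call is an adjusted p under 0.05. The SE was obtained from the fold change and the F statistic. The procedure was tested on simulated data. Totals of 27600959 to 31810799 counts set the precision.

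Members and lists were chosen with earlier results of these data known. Named members are 23 fixed ones, the called members of at least 5 CPM with the largest change (10 per direction at most), the 8 with the largest ratio between the ANT pairs and the 3 leading genes per list. Other members, and cochaperones named for the split, were chosen after their values were seen. Alternatives were scaling by RLE, upper-quartile factors or totals alone, other filters and thresholds, DESeq2 1.42.0, limma-voom (limma 3.58.1), a test against a fold change of 1.5, a replicate block, and leaving out libraries singly or as ANT pairs. Protein sequences were not analysed here.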

Additional observations from a re-analysis of the deposited data

Results flagged for a closer look

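Among 76 groups of 4 libraries (named members by clone), 3 had 1 library far from the others by Dixon's criterion at the 95% level, where chance gives about 1 group in 20. Dnajb14 was at 13.8 CPM in ANT replicate 1, against 16.72 to 17.2 CPM in the other ANT libraries. Dnajb14 was also at 13.81 CPM in SAS replicate 2, where its other SAS libraries had 8.87 to 9.637 CPM, and the 2 libraries are the ones at which the clones meet. Hspa4 was at 342.3 CPM in SAS replicate 3, where its other SAS libraries had 301.4 to 304.8 CPM, all of them above ANT.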

How the results depend on the processing

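The 10 members higher in SAS became 18 with scaling by library totals alone, 2 in a test against a fold change of 1.5, 19 with a replicate block and 18 without ANT replicates 4 and 5. The 8 higher in ANT became 2 against a fold change of 1.5, 15 with the replicate block, 16 without ANT replicates 4 and 5 and 5 at an adjusted p under 0.01. Leaving out 1 library gave 8 to 11 and 7 to 10. The block leaves the comparison to replicates 1 and 3, the numbers both clones share. It thus draws on the same ANT libraries as the fit without ANT replicates 4 and 5, with very few residual degrees of freedom. Whether the numbers pair the samples is not stated, and the correlations of deviations (0.293 for number 1 and -0.121 for number 3) cannot decide it. Samples with different numbers gave correlations from -0.341 to 0.306. Of the log2 fold changes of uncalled members, some turned sign. Without ANT replicates 4 and 5 they were 0.0945 for Bag3, -0.0384 for Cct2, 0.15 for Dnaja1, 0.0010 for Dnajb2, 0.50 for Dnajc30 and 0.17 for Hsf1. Without ANT replicates 1 and 3 they were 0.32 for Dnajc10, -0.0670 for Hsp90b1, 1.44 for Hspa1a, 0.93 for Hspa1b and -0.34 for Hsph1. With the replicate block they were 0.24 for Dnaja1, 0.49 for Dnajc30, 0.10 for Hsf1 and 0.0257 for Hsf2. With scaling by library totals they were 0.0566 for Dnajc30 and 0.0610 for Hsf2, and with limma-voom 0.0192 for Dnajc30. Leaving out 1 library gave -0.25 to 0.0052 for Dnaja1, -0.21 to 0.21 for Dnajc30 and -0.0880 to 0.0207 for Hsf2. The cause was not tested. Without ANT replicate 1 and without ANT replicate 3, Dnajb2 was called (-0.65 each, adjusted p 0.0351 and 0.0357). Hspa4l, Bag2, Dnajc6 and Dnajc15 kept their calls under every alternative run. With 4 libraries a group, small fold changes can be missed.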
